A study of Mus musculus with 6 samples.

Results

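Fry, Fras1, Thsd4, Clgn, Amot, Rragd and Prdm1 are 7 genes, of 25904 deposited, whose response to retinoic acid (RA) was much lower in mouse F9 cells depleted of Ctbp2 than in control cells. They were chosen by that difference in these same libraries, so their values in the control and Ctbp2 knock-down libraries are a description, with no test. F9 is a mouse teratocarcinoma line used as a model of endoderm formation, which RA sets off. RNA sequencing was done on 6 groups of 1 library each. The groups were shCtbp2_RA and shCtbp2_UT (hairpin against Ctbp2), shRxr_RA and shRxr_UT (hairpin against a retinoid X receptor that the labels do not name further) and shGFP_RA and shGFP_UT (control hairpin against GFP). RA groups were given all-trans RA at 1 µM, 48 hours ahead of the harvest, and UT groups were untreated. Cells of all groups expressed a hairpin and grew on gelatin in medium with charcoal-stripped serum. The labels do not say whether a line was 1 clone or a pool, and they name no replicate culture.

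RA acts through RA receptors, which bind DNA as pairs with retinoid X receptors and switch from repression to activation when RA binds. Ctbp2 is a corepressor that DNA-binding proteins recruit, and the study asked how far the RA response depends on it. The 7 genes are not a pathway. Fras1 and Thsd4 encode extracellular matrix proteins, Clgn a chaperone, Amot, Fry and Rragd regulators of growth signalling, and Prdm1 a transcriptional repressor. None of them is a gene of the classical RA response such as Rarb or Cyp26a1.

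Levels below are normalised reads, that is, reads of a gene per 10000000 reads counted in genes of the library, which held 9955808 to 13322506 such reads. They are not divided by transcript length and are not compared between genes. Folds are ratios of levels with 95% intervals from the exact binomial (Clopper-Pearson) interval of the reads. These intervals cover counting error only, and with 1 library per group no difference has a replicate check. Log2 responses are on the scale log2(value + 10), RA minus untreated, and understate changes of low genes. In bulk RNA, fewer cells expressing a gene and less of its RNA per cell cannot be told apart.

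Ctbp2, the target of its hairpin, was 12.6-fold lower in shCtbp2_RA than in shGFP_RA (9.65 to 16.9) and 8.62-fold lower in shCtbp2_UT than in shGFP_UT (7.57 to 9.85). Rxra was 9.78-fold lower in shRxr_RA than in shGFP_RA (7.81 to 12.4), while Rxrb stood at 546 normalised reads in shRxr_RA and 638 in shRxr_UT, against 673 in shGFP_RA and 605 in shGFP_UT. Rxrg was under the minimum mean level of 20. The 10 pluripotency markers summed to 53272 normalised reads in shCtbp2_RA, 42236 in shRxr_RA and 25391 in shGFP_RA, and to 57047 to 58707 in the untreated libraries. In shCtbp2 4 of the 10, Sox2, Zfp42, Tdgf1 and Lin28a, were at least 2-fold lower in RA and 0 higher, against 3 and 0 in shRxr and 7 and 0 in shGFP. The shCtbp2_RA sum is carried by Pou5f1, at 26185 in shCtbp2_RA and 18524 in shCtbp2_UT, and Dppa5a, at 8488 in shCtbp2_RA and 4940 in shCtbp2_UT. The 12 markers of primitive and parietal endoderm summed to 27171 in shCtbp2_RA, 17716 in shRxr_RA and 33531 in shGFP_RA, and to 8376 to 10048 untreated. Over the 6 libraries the 6 markers of visceral endoderm summed to 51.9 to 361, the 6 of trophoblast to 256 to 604, the 7 found of 8 fibroblast markers to 131 to 519 (Postn was at 0 in every library) and the 4 found of 6 blood markers to 70.3 to 131. The trophoblast, fibroblast and blood sums also rested mostly on few genes. Over the libraries Eomes stood at 210 to 495 and Cd68 at 69.5 to 131. Of the fibroblast markers, Pdgfrb stood at 465 in shGFP_RA and Thy1 at 131 in shCtbp2_UT. The part of these marker levels in the results was not tested.

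Of the 6 libraries, shCtbp2_RA followed GC content and transcript length most closely. Across 12133 genes with a known transcript, which share library and depth, its deviation from the mean of the 6 libraries had a Spearman rho of 0.65 with GC content and -0.44 with transcript length. With GC content rho was 0.25 in shGFP_RA, of the same sign, and -0.44 to -0.40 in the remaining libraries. With length it was 0.04 to 0.36 outside shCtbp2_RA. The mean includes every library, so these deviations are not independent. The RA response itself had a rho with GC content of 0.62 in shCtbp2, 0.37 in shGFP and -0.06 in shRxr. Every RA response of shCtbp2 rests on the shCtbp2_RA library, and every one of shGFP on shGFP_RA. Responses are therefore also given after a correction that removes each library's trend on GC content and length, which cannot separate a library bias from a response that follows these properties.

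All 7 genes passed the minimum mean level of 20, as did 12332 genes in all. Ranked by the shCtbp2 response minus the shGFP response, from the most negative, Fry, Fras1, Thsd4, Clgn, Amot and Rragd took places 3 to 8 and Prdm1 place 10, with differences between -3.03 (Fry) and -2.56 (Prdm1). Crabp2 (-3.85) and Igfbp5 (-3.47) ranked first and second and are not among the 7. Just inside the smallest loss lay Il17rd at -2.59, and just outside it Gpr161 at -2.53. The largest non-members with a mean level of at least 50 were Crabp2, Il17rd, Gpr161, Ptpn13 (-2.48) and Tshz1 (-2.45). Of all genes, 12.4% had a difference of -1 or lower, and the median difference was -0.13. The rule fixes that all 7 genes lie past -1, so nothing is read from that count.

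**Figure D1:**
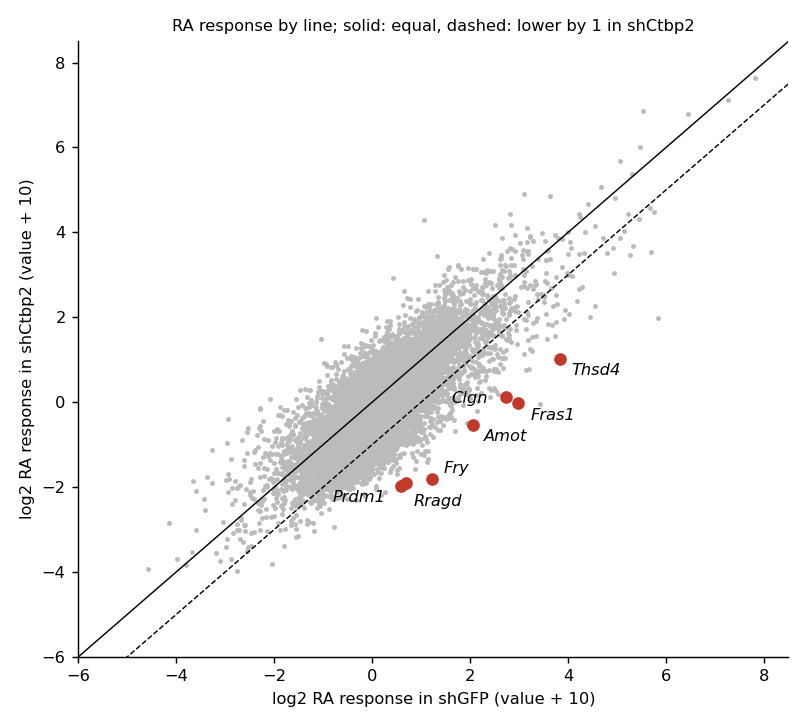
Log2 RA response in shGFP (horizontal axis) and in shCtbp2 (vertical axis), on log2(value + 10), for 12332 genes in grey and the 7 genes in red. The solid line marks equal responses and the dashed line a response lower by 1 in shCtbp2; all 7 genes lie below the dashed line, with Fry, Rragd and Prdm1 at negative shCtbp2 responses near -2.

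The sequences around the gene starts are shown because the 7 genes were grouped by their response to a hormone whose receptors read a DNA motif. RefSeq promoter windows (GRCm38.p6, 250 bases before to 50 after a gene start) were held for 5 of the 7 genes, 6 windows in all. Receptors of this class recognise short hexamers, and RA receptors in particular bind a pair of them in the same direction. The hexamers searched, on both strands, were AGGTCA (in 16.3% of all 32851 windows of this length), AGTTCA (14.0%), GGGTCA (13.7%) and GGTTCA (10.4%). One hexamer stood in 1 window each of Thsd4, Amot, Rragd and Prdm1, and none in the Fry window or the other Thsd4 window. At least 1 of the 4 hexamers stands in 43.7% of all windows. None of the 6 windows held a direct repeat spaced by 1, 2 or 5 bases, which 0.222%, 0.268% and 0.0974% of all windows do. Rarb, a gene activated by RA in many cells, has a repeat spaced by 5 bases in its window. Rarb stood at 145 normalised reads in shCtbp2_RA and 2.48 in shCtbp2_UT, against 390.3 in shGFP_RA and 3.22 in shGFP_UT. Its log2 response was thus 3.64 in shCtbp2 and 4.92 in shGFP. A match is a description of letters, not a site.

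The 4 windows of the group with a hexamer and the Rarb window follow, 5′ to 3′ on the strand of the gene, with the hexamers in capitals. A hexamer on the opposite strand appears as its reverse complement, TGAACT in Rragd and TGAACC in Prdm1. The windows lie at chr9:60510986-60511285 (Thsd4, minus strand), chrX:145487590-145487889 (Amot, minus strand), chr4:32982748-32983047 (Rragd, plus strand), chr10:44458699-44458998 (Prdm1, minus strand) and chr14:16575427-16575726 (Rarb, minus strand), all GRCm38.p6.
Thsd4: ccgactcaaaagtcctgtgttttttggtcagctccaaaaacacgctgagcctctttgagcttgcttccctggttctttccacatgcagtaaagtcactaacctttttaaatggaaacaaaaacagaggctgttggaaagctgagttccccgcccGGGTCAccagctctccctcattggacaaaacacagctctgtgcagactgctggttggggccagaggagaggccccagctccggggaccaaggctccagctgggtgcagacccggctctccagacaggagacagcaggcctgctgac
Amot: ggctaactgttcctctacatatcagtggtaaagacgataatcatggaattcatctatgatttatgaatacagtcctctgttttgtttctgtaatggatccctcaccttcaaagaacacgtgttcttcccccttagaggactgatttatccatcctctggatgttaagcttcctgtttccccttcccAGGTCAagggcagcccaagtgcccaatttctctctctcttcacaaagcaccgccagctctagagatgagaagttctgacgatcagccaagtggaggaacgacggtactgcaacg
Rragd: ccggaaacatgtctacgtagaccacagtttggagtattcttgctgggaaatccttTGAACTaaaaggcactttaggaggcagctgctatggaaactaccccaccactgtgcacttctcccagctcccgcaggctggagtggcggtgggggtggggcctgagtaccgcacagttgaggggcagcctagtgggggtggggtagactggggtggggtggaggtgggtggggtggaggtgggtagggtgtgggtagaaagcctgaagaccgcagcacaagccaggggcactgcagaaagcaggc
Prdm1: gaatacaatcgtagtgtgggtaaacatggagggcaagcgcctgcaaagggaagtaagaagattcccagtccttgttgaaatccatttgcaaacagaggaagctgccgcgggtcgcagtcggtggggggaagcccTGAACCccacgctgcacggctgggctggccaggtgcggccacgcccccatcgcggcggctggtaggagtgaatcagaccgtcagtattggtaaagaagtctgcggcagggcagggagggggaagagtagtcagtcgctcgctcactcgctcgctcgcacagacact
Rarb: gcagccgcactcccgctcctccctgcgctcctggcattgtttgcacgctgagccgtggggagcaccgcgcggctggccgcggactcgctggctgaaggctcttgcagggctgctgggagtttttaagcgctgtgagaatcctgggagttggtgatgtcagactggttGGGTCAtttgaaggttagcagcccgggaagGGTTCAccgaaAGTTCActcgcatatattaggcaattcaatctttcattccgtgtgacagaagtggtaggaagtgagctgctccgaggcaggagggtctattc

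The hexamer began 96 bases before the gene start in Thsd4, 64 before it in Amot, 195 in Rragd and 116 in Prdm1. In the Rarb window GGTTCA began 53 bases before the start, the repeat partner AGTTCA 42 before it, and another hexamer, GGGTCA, 83 before it. No window of the group held more than 1. The 6 windows had 2 (Thsd4) to 20 (Prdm1) CpG dinucleotides, against a median of 7 over all windows.

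**Figure D2:**
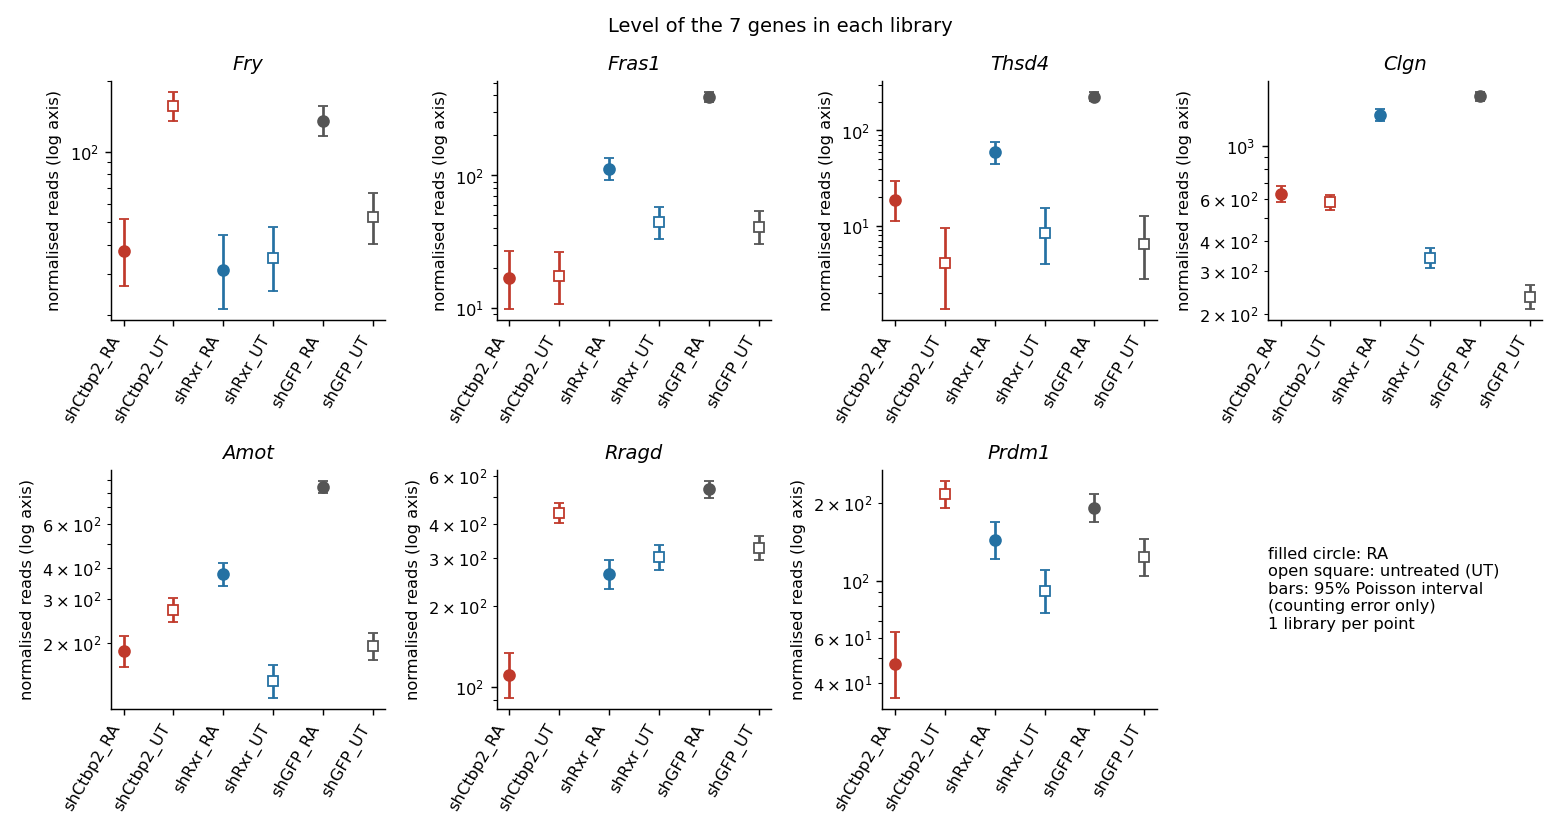
Level of each of the 7 genes in the 6 libraries, in normalised reads on a log axis with a range of its own for each gene; filled circles are RA, open squares untreated, bars are exact 95% Poisson intervals and each point is 1 library. shGFP_RA is the highest library for 5 genes, while Fry and Prdm1 are highest in shCtbp2_UT.

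On log2(value + 10) the matrix genes Thsd4 (3.84) and Fras1 (2.97) had the largest RA responses of the 7 in control cells. Clgn followed at 2.73. With a pseudocount of 50 Clgn was highest, at 2.54, against 2.29 for Thsd4 and 2.27 for Fras1. Fras1 (ENSMUSG00000034687, mm9 chromosome 5, 96802974 to 97213747) encodes a basement membrane protein that holds epithelium to the tissue beneath and is mutated in human Fraser syndrome. It stood at 16.8 normalised reads in shCtbp2_RA and 17.4 in shCtbp2_UT, at 111 in shRxr_RA and 44.4 in shRxr_UT, and at 390.3 in shGFP_RA and 41.1 in shGFP_UT. Both shCtbp2 libraries were below every other library and did not differ from each other beyond counting error, nor did the untreated shRxr and shGFP libraries. The RA level was 0.969-fold the untreated one in shCtbp2 (0.480 to 1.93), 2.51-fold in shRxr (1.80 to 3.56) and 9.50-fold in shGFP (7.12 to 12.9). In RA, Fras1 was 23.2-fold lower in shCtbp2 than in shGFP (14.3 to 40.1), and untreated it was already 2.36-fold lower (1.40 to 4.14). After the GC and length correction its log2 response in shCtbp2 was 0.57, against 2.80 in shGFP.

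Thsd4 (ENSMUSG00000032289, chromosome 9, 59814738 to 60369853), also known as ADAMTS-like 6, encodes a secreted protein that binds fibrillin and promotes microfibril assembly. It stood at 18.8 normalised reads in shCtbp2_RA and 4.14 in shCtbp2_UT, at 59.3 in shRxr_RA and 8.37 in shRxr_UT, and at 226 in shGFP_RA and 6.44 in shGFP_UT. Every line was higher in RA, and neighbours in the order of the lowest 4 libraries, the 3 untreated ones and shCtbp2_RA, did not differ beyond counting error. The RA level was 4.55-fold the untreated one in shCtbp2 (1.64 to 15.6), 7.08-fold in shRxr (3.59 to 15.5) and 35.1-fold in shGFP (17.6 to 82.0). A response was thus measured in shCtbp2 too, smaller than in shGFP. The untreated level of shCtbp2 rests on 5 reads, and that of shGFP on 8. In RA, Thsd4 was 12.01-fold lower in shCtbp2 than in shGFP (7.56 to 20.2) and 3.81-fold lower in shRxr than in shGFP (2.88 to 5.13). On log2(value + 10) the response was 1.03 in shCtbp2 and 3.84 in shGFP. With a pseudocount of 1 these responses were 1.95 and 4.93, and with 50 they were 0.35 and 2.29.

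Clgn (ENSMUSG00000002190, chromosome 8, 85913766 to 85952451) encodes calmegin, a relative of calnexin that helps fold membrane proteins in the endoplasmic reticulum and is abundant in testis. It stood at 630.5 normalised reads in shCtbp2_RA and 582 in shCtbp2_UT, at 1347 in shRxr_RA and 341 in shRxr_UT, and at 1609 in shGFP_RA and 234 in shGFP_UT. The shCtbp2 libraries lay between the RA and untreated libraries of the other lines and differed from each other by no more than counting error (1.08-fold, 0.971 to 1.21). The RA level was 3.94-fold the untreated one in shRxr (3.53 to 4.42) and 6.87-fold in shGFP (6.07 to 7.79). The difference between lines lay at both treatments. Clgn was 2.55-fold lower in shCtbp2 than in shGFP in RA (2.34 to 2.79) and 2.48-fold higher untreated (2.16 to 2.86). After the correction the log2 response in shCtbp2 was 0.73, against 2.76 in shGFP, and the RA difference between these lines was -0.72 in place of -1.34.

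Amot (ENSMUSG00000041688, chromosome X, 141880968 to 141939724) encodes angiomotin, which binds junction proteins and holds the growth coactivator Yap1 out of the nucleus. It stood at 185 normalised reads in shCtbp2_RA and 272 in shCtbp2_UT, at 377 in shRxr_RA and 141 in shRxr_UT, and at 844 in shGFP_RA and 194 in shGFP_UT. The RA library was lower than the untreated one in shCtbp2 and higher in shRxr and shGFP, and shCtbp2_RA did not differ from shGFP_UT beyond counting error. In shCtbp2 the RA level was 1.47-fold lower than the untreated one (1.22 to 1.77), while it was 2.68-fold the untreated one in shRxr (2.23 to 3.23) and 4.35-fold in shGFP (3.78 to 5.02). That direction depended on the processing, since the log2 response in shCtbp2 was -0.53 and 0.10 after the correction. In RA, Amot was 4.56-fold lower in shCtbp2 than in shGFP (3.90 to 5.35), a log2 difference of -2.13 and of -1.33 after the correction.

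Fry (ENSMUSG00000056602, chromosome 5, 150921242 to 151300327) encodes a very large scaffold protein whose fly ortholog, furry, works with NDR kinases in cell shape. It stood at 37.6 normalised reads in shCtbp2_RA and 156 in shCtbp2_UT, at 31.1 in shRxr_RA and 35.2 in shRxr_UT, and at 136 in shGFP_RA and 52.4 in shGFP_UT. Untreated shCtbp2 and RA-treated shGFP were the 2 high libraries and did not differ beyond counting error, nor did neighbours in the order of the other 4. In shCtbp2 the RA level was 4.16-fold lower than the untreated one (2.92 to 6.06), while it was 0.886-fold the untreated one in shRxr (0.538 to 1.44) and 2.60-fold in shGFP (1.94 to 3.50). Fry was 3.61-fold lower in shCtbp2 than in shGFP in RA (2.53 to 5.27) and 2.99-fold higher untreated (2.24 to 4.02). The untreated difference made up 46.7% of its difference in response on the log2 scale. After the correction the RA difference was -0.89 in place of -1.62, and the untreated one 1.49 in place of 1.42.

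Rragd (ENSMUSG00000028278, chromosome 4, 33070012 to 33109155) encodes RagD, a small GTPase that pairs with RagA or RagB on lysosomes and brings mTORC1 there when amino acids are present. It stood at 111 normalised reads in shCtbp2_RA and 440.0 in shCtbp2_UT, at 261 in shRxr_RA and 301 in shRxr_UT, and at 536 in shGFP_RA and 326 in shGFP_UT. The shCtbp2_RA library was below all others, and shGFP_UT, shRxr_UT and shRxr_RA did not differ beyond counting error from their neighbours among these 3. In shCtbp2 the RA level was 3.97-fold lower than the untreated one (3.23 to 4.91), while it was 0.867-fold the untreated one in shRxr (0.736 to 1.02) and 1.64-fold in shGFP (1.45 to 1.86). In RA, Rragd was 4.83-fold lower in shCtbp2 than in shGFP (3.96 to 5.95). On the log2 scale the response was -1.90 in shCtbp2 and 0.70 in shGFP, so the shCtbp2 response lay farther from 0 than that of the control, as it also did for Fry and Prdm1.

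Prdm1 (ENSMUSG00000038151, chromosome 10, 44156983 to 44248307) encodes Blimp1, a zinc finger repressor that directs plasma cells and primordial germ cells. It stood at 47.5 normalised reads in shCtbp2_RA and 216 in shCtbp2_UT, at 144 in shRxr_RA and 91.2 in shRxr_UT, and at 191 in shGFP_RA and 123 in shGFP_UT. As with Fry and Rragd, shCtbp2 was the line in which the RA library was far below the untreated one. The highest libraries, shCtbp2_UT and shGFP_RA, did not differ beyond counting error, nor did shRxr_RA and shGFP_UT. In shCtbp2 the RA level was 4.54-fold lower than the untreated one (3.33 to 6.32), whereas it was 1.57-fold the untreated one in shRxr (1.22 to 2.04) and 1.55-fold in shGFP (1.26 to 1.90). In RA, Prdm1 was 4.01-fold lower in shCtbp2 than in shGFP (2.94 to 5.58), and untreated it was 1.75-fold higher (1.43 to 2.15). After the correction the RA difference was -1.11 in place of -1.80, and the log2 response in shCtbp2 was -1.44.

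**Figure D3:**
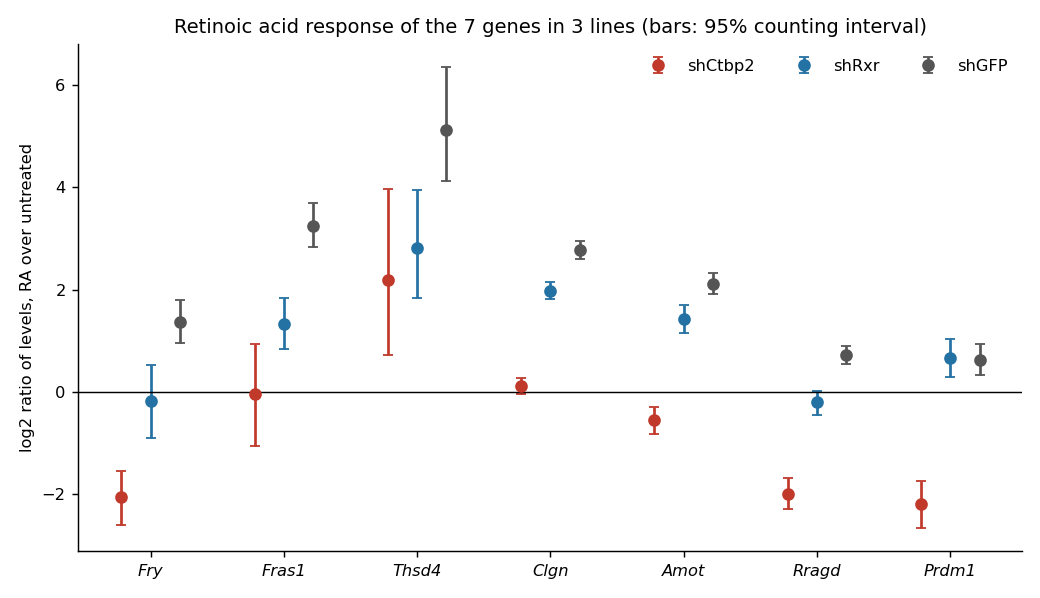
Log2 ratio of the RA level to the untreated level of each gene in shCtbp2, shRxr and shGFP, without a pseudocount; bars are 95% counting intervals. The shCtbp2 point is the lowest of the 3 for every gene and lies below 0 for Fry, Amot, Rragd and Prdm1 by more than its interval (for Amot not after the GC and length correction), while the shRxr point lies between the others for all genes but Prdm1.

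The 7 genes thus did not share a single pattern in shCtbp2. In that line 1 of 7 was at least 2-fold higher in RA (Thsd4), against 15.1% of all genes, and 3 of 7 were at least 2-fold lower (Fry, Rragd and Prdm1), against 19.3%. In shGFP 5 of 7 were at least 2-fold higher, against 13.4% of all genes, and 0 of 7 lower, against 7.07%. After the correction 4 of 7 were at least 2-fold higher in shGFP, against 9.26% of all genes, Fry falling short at 0.96. With a pseudocount of 50, 0 of 7 were at least 2-fold higher in shCtbp2, Thsd4 falling short. A response above 0 in shGFP with one below 0 in shCtbp2, of any size, was seen in 5 of 7 (all but Thsd4 and Clgn) and in 14.6% of all genes. Of these 5, Fras1 (-0.03) was within counting error of 0 in shCtbp2, and Fras1 and Amot were above 0 there after the correction. These counts use the values that chose the genes. After the correction the shCtbp2 and shGFP responses differed by -2.38 (Fry) to -1.85 (Amot), all past -1, as were 3.62% of all genes.

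**Figure D4:**
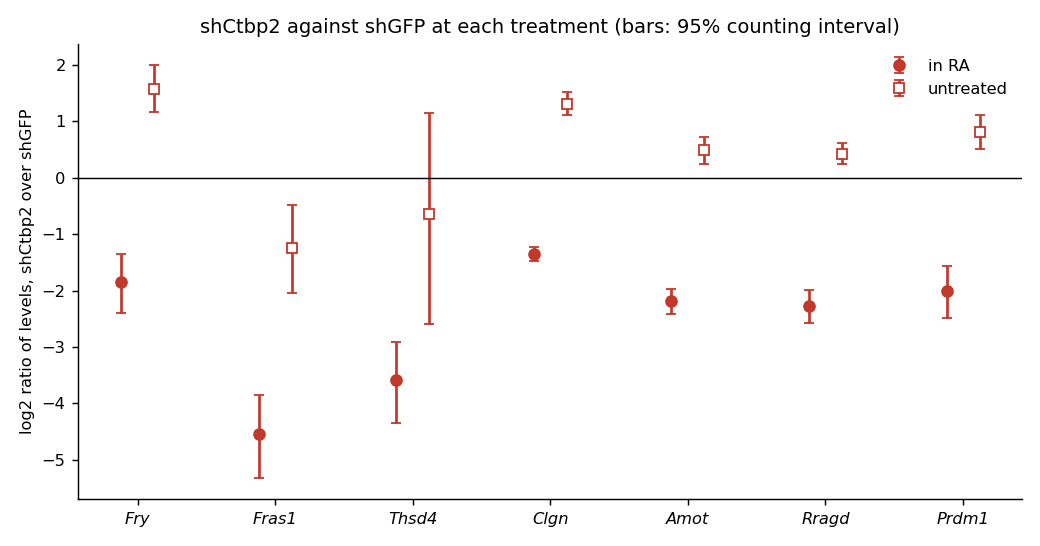
Log2 ratio of the level in shCtbp2 to that in shGFP for each gene, in RA (filled circles) and untreated (open squares), with 95% counting intervals. All 7 genes lie below 0 in RA, and 5 of them, Fry, Clgn, Amot, Rragd and Prdm1, lie above 0 untreated.

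At which treatment the lines differed varied over the group. The levels compared here entered the choice of the genes, so the counts are a description, with no test. In RA all 7 genes were at least 2-fold lower in shCtbp2 than in shGFP, against 14.8% of all genes, with log2 differences of -3.90 (Fras1) to -1.34 (Clgn). After the correction 5 of 7 were, against 4.66% of all genes, Clgn and Fry falling short. Untreated, Fry and Clgn were at least 2-fold higher in shCtbp2, against 1.39% of all genes, and 0 of 7 lower, against 2.34%. With a pseudocount of 1, Fras1 was at least 2-fold lower untreated, as were 4.31% of all genes. Amot, Rragd and Prdm1 were higher untreated by 1.40-fold (1.18 to 1.66), 1.35-fold (1.18 to 1.54) and 1.75-fold. The untreated difference accounted for 16.2% (Rragd) to 48.8% (Clgn) of the difference in response for these 5 genes on the log2 scale, while Fras1 (-0.90) and Thsd4 (-0.22) had untreated differences below 0. The untreated comparison does not use the shCtbp2_RA library. It does use shCtbp2_UT and shGFP_UT, which also entered the choice of the genes, so its counts are a description.

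The rule that chose the genes compared the shCtbp2 and shGFP responses and did not use the shRxr levels. The genes were, however, chosen with earlier results of these data known. A high response in shGFP also makes the difference more negative, so the shRxr counts are a description, with no test. In shRxr 4 of 7 genes were at least 2-fold higher in RA (Fras1, Thsd4, Clgn and Amot), against 5.26% of all genes, and 0 of 7 lower, against 1.46%. Over all genes 649 were higher and 180 lower in that line, and 477 and 245 after the correction, when 3 of 7 genes were higher, against 3.93% of all genes, Fras1 falling short at 0.97. With a pseudocount of 50 the count was 2 of 7, against 2.01% of all genes, since Fras1 (0.78) and Thsd4 (0.90) fell short. The median log2 response of the 7 genes was -0.53 in shCtbp2, 1.16 in shRxr and 2.06 in shGFP, beside medians over all genes of 0.07, 0.09 and 0.12. Because shRxr and shCtbp2 are set against the same shGFP libraries, their differences are not independent. The shGFP libraries did take part in the choice, so counts of shRxr against shGFP are a description. The shRxr response was lower than that of shGFP by 1 or more in 3 of 7 genes, Thsd4 (-1.93), Fras1 (-1.81) and Fry (-1.36), against 4.47% of all genes. It was -0.90 for Rragd, -0.78 for Clgn, -0.70 for Amot and 0.01 for Prdm1. For Prdm1 the shGFP fold divided by the shRxr fold was 0.983 (0.714 to 1.35). For the same gene the fold in shCtbp2 was 7.03 times smaller than in shGFP (4.87 to 10.2). In RA 5 of 7 genes were at least 2-fold lower in shRxr than in shGFP, against 2.62% of all genes, Clgn (1.19-fold) and Prdm1 (1.33-fold) being the exceptions. With a pseudocount of 50 Rragd fell short too.

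Transcripts of the group were long. The longest annotated transcript was 15848 bases for Fras1, 10893 for Fry, 8796 for Thsd4 and 6957 for Amot, which put these 4 in the top decile of length, and 5281 for Prdm1, 5055 for Rragd and 3902 for Clgn, against a median of 3450. In the top length decile of all genes 33.7% had a shCtbp2 response lower by 1 or more than that of shGFP, and in the bottom decile 1.48%. By GC content Clgn, Prdm1, Rragd and Amot lay between 44.3% and 46.7%, in deciles where 21.9% to 25.1% of genes did, while Fry, Fras1 and Thsd4 lay between 51.4% and 52.4%, in deciles where 4.95% to 9.81% did. Across 12133 genes the difference in response had a Spearman rho of -0.46 with length and 0.52 with GC content. The part of length and GC content in the members' differences was not tested beyond the correction given above.

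**Figure D5:**
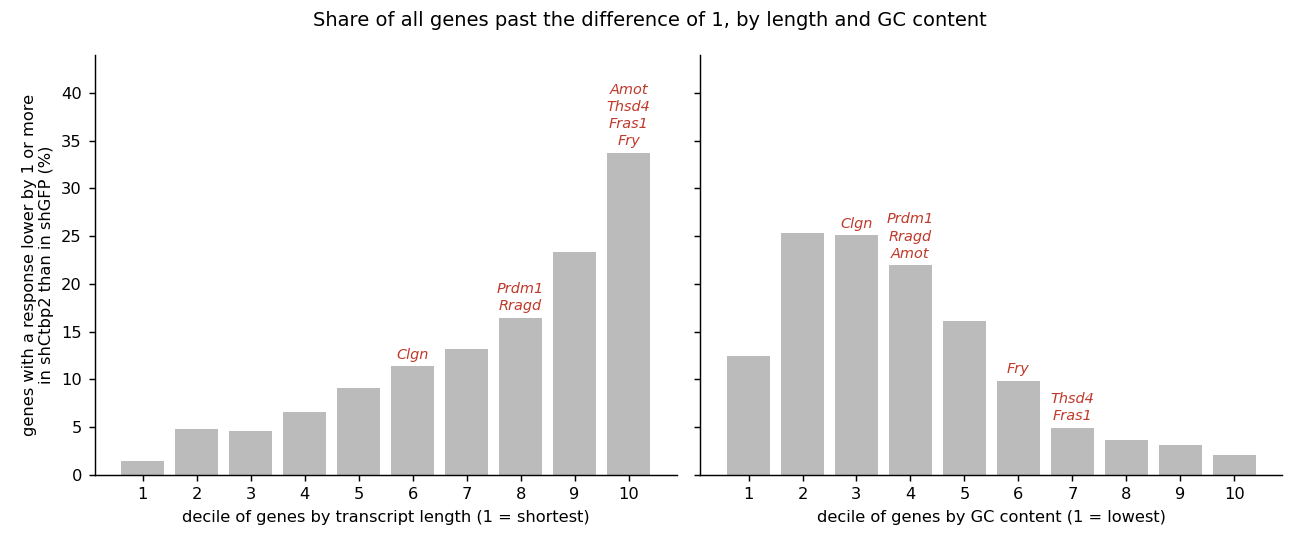
Share of all genes (percent, vertical axis) whose log2 RA response was lower by 1 or more in shCtbp2 than in shGFP, in deciles of 12133 genes by transcript length (left) and GC content (right), with the 7 genes written above the decile they belong to. The share climbs to 33.7% in the top length decile, which holds Fras1, Fry, Thsd4 and Amot, and is 2.06% in the top GC decile, which holds none of the 7.

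Proteins that work with Fras1 include its complex partners, which anchor to one another, and the integrins and ligands they meet at the basement membrane. Of 8 other measured genes of the Fraser complex and its receptors, 4 had a shCtbp2 response lower by 1 or more than that of shGFP and 0 higher. Of all genes 12.4% were lower and 2.72% higher, shares that apply to the lists below too. The median difference of the 8 genes was -1.18. After the correction 2 were lower by 1 or more. Npnt, or nephronectin, a basement membrane ligand of the integrin Itga8, stood at 109.9 normalised reads in shCtbp2_RA and 90.2 in shCtbp2_UT, against 451 in shGFP_RA and 70.1 in shGFP_UT. Frem2, whose protein forms a complex with Fras1, stood at 31.7 and 24.8 in shCtbp2_RA and shCtbp2_UT, against 329 and 87.8 in shGFP_RA and shGFP_UT. The others of the 4 were Frem1 (-2.07), the remaining complex member, and the integrin subunit Itgb1 (-1.53). Frem1 had a mean level near the minimum, at 59.6 in shCtbp2_UT and 4.95 to 18.5 in the other libraries. It thus passed the minimum only through shCtbp2_UT, which also enters its difference, and its log2 response in shGFP was -0.15. The 2 past -1 after the correction were Npnt (-1.92 corrected) and Frem1 (-1.22 corrected), while Frem2 was at -0.85.

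Among 11 other measured genes of fibrillin microfibrils and the ADAMTS-like family, 2 were lower in response by 1 or more and 0 higher, with a median difference of 0.07. They were the fibrillins that build the microfibril, Fbn2 (-1.75) and Fbn1 (-1.61), and after the correction only Fbn2 (-1.18). Fbn1 stood at 151 in shCtbp2_RA and 87.7 in shCtbp2_UT, against 741 in shGFP_RA and 139 in shGFP_UT. The relatives of Thsd4 above the minimum level, Adamtsl4 (-0.20) and Adamtsl5 (0.20), differed by less than 1 in response.

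Of 21 other measured genes of the motins and the Hippo pathway, 6 were lower in response by 1 or more and 0 higher (2 and 0 after the correction), with a median of -0.71. They were the junction scaffold Mpdz (-1.55), the transcription factor Tead1 (-1.45), the kinases Lats2 (-1.39), Lats1 (-1.04) and Stk3 (-1.02) and their adaptor Sav1 (-1.06). The 2 past -1 after the correction were Lats2 (-1.13 corrected) and Tead3 (-1.10 corrected, -0.81 without the correction). The paralogs of Amot, Amotl1 (-0.47) and Amotl2 (-0.83), were short of 1.

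Of 12 other measured genes of the furry proteins and NDR kinases, 2 were lower in response, the kinase activator Mob1a (-1.47) and the paralog Fryl (-1.06), and 0 of 12 after the correction. Fryl, unlike Fry, was lower in RA in shGFP as well, with log2 responses of -1.95 in shCtbp2 and -0.89 in shGFP. Of 14 other lectin chaperone genes, 2 were lower, the glycoprotein sensor Uggt1 (-1.11) and the disulfide isomerase Pdia3 (-1.06), and 0 of 14 after the correction. The calnexin gene Canx, a relative of Clgn, was at -0.94. Of 24 other Rag GTPase, Ragulator and mTORC1 genes, 3 were lower, Mitf (-1.76), the folliculin partner Fnip2 (-1.48) and Rragb (-1.21), and 1 of 24 after the correction. The closest paralog of Rragd, Rragc, had log2 responses of -0.46 in shCtbp2 and 0.15 in shGFP. Of 14 other genes of the PRDM family and Prdm1 partners, Mecom (-2.42) was lower in response and the pluripotency regulator Prdm14 (1.57) higher. The other PRDM genes above the minimum level lay between -0.95 (Prdm9) and -0.10 (Prdm16). Over these 7 lists, the number past -1 was at or above the share of all genes, 12.4%, in 6 lists and below it in the PRDM list. The number is small in each, and after the correction it was 0 to 2 in every list, when 3.62% of all genes were past -1.

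Direct RA targets are genes that RA receptors are known to activate, such as Rarb. Of 18 such genes 17 were at least 2-fold higher in RA in each line. Of all genes 15.1% were in shCtbp2, 5.26% in shRxr and 13.4% in shGFP. The exception was Nrip1 in shCtbp2, at a log2 response of 0.97, and Rarg in shRxr and shGFP, at -0.14 in each. Median log2 responses of the 18 were 3.64 in shCtbp2, 3.17 in shRxr and 4.93 in shGFP. In shCtbp2 6 of 18 had a response lower by 1 or more than in shGFP, against 12.4% of all genes. They were Crabp2, Hoxb1 (-2.16), Meis1 (-1.96), Nrip1 (-1.42), Rarb (-1.28) and Cyp26b1 (-1.12). A response higher by 1 or more was seen for 2, Rarg (1.48) and Stra6 (1.34), against 2.72% of all genes. After the correction 5 of 18 were lower and 2 higher, when 3.62% of all genes were lower. The lower ones were then Crabp2, Hoxb1, Cyp26b1, Meis1 and Hoxb4 (-1.08 corrected). Rarb (-0.94 corrected) and Nrip1 (-0.51 corrected) fell short. In shRxr 16 of 18 were lower by 1 or more, against 4.47% of all genes. Cyp26a1, which breaks RA down, had log2 responses of 7.11 in shCtbp2 and 7.27 in shGFP, a difference of -0.15. Crabp2, which carries RA to its receptors, had the most negative difference of the 12332 genes.

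The genes with the most similar course over the 6 libraries were found by the distance between log2 values, each gene centred on its mean, which includes the libraries that chose the 7 genes. Rragd lay closest to Il17rd (distance 0.15), which stood at 263 normalised reads in shCtbp2_RA and 1031 in shCtbp2_UT, against 1293 in shGFP_RA and 813 in shGFP_UT. Clgn lay closest to Meis2 (0.33), Prdm1 to Gja1 (0.44), Fry to Podxl (0.54), Amot to Stk32a (0.60), Thsd4 to Antxr2 (0.70) and Fras1 to Frem2 (0.88). The next were Tox3 for Rragd, Rasgrp3 for Clgn, Prickle2 for Prdm1, Fam84b for Fry, Flt1 for Amot, Cacna1g for Thsd4 and Ccnd2 for Fras1, at distances of 0.39 to 0.93. Within the group the closest pair was Rragd and Prdm1 (0.68) and the farthest Fry and Thsd4 (3.67).

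The 14 nearest measured genes were taken, 1 on either side of each member on its chromosome. Of these, 3 had a shCtbp2 response lower by 1 or more than that of shGFP, against 12.4% of all genes. The 3 were Anxa3, 8.66 kb from Fras1 (-1.61), Elmod2, 57.4 kb from Clgn (-1.49), and Lrrc49, 46.8 kb from Thsd4 (-1.20). Anxa3 stood at 88.1 normalised reads in shCtbp2_RA and 38.0 in shCtbp2_UT, against 238 in shGFP_RA and 29.8 in shGFP_UT. Scoc, 5.94 kb from Clgn, differed by 0.27, Ube2j1, 9.24 kb from Rragd, by -0.35, and Brca2, 24.9 kb from Fry, by -0.79.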

How the data were processed

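Per the labels' protocols, total RNA went through a TruSeq kit onto a HiSeq sequencer. TopHat 1.4 (alignment to mm9) and HTSeq (counting) are named, per the submitters' processing notes. Strand setting, counting mode and gene annotation were not given in the sources used here. Values deposited by the authors are log2 of 1 plus the reads of a gene scaled to a library total of 10000000. That formula was inferred from the table, where 100% of values came back as whole reads within 1e-06 of a read. Genes with a mean level of at least 20 over the 6 libraries were compared, on log2(value + 10), by size (at least 2-fold, a log2 of 1), since 1 library per group allows no test.

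GC content and length came from the longest GENCODE vM21 transcript of each Ensembl identifier, found for 98.4% of these genes. Each library's cubic trend on both was removed in the correction. Named genes were the members, the 2 most similar genes and the nearest genes on either side of each, the non-members next in rank, the 5 largest non-members and members of 15 lists. For lists, genes past 1 and paralogs were named. Brackets after a list gene give its shCtbp2 response minus that of shGFP. Bora, Pdilt, Lamtor1, Lum, Tyrobp and Hbb-b1 had no value under these symbols. The members and lists were chosen with earlier results of these data known. Intervals for the difference of folds are normal approximations on the log scale. Alternatives were pseudocounts of 1 and 50, upper-quartile and median-of-ratios scaling, the correction, and filters on the mean. Software was scipy 1.17.1, pandas 2.3.3, numpy 2.4.6, matplotlib 3.10.9 and Python 3.11.15.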

Additional observations from a re-analysis of the deposited data

Results flagged for a closer look

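The RA response had opposite directions in shCtbp2 and shGFP, each beyond counting error, for 4 of the 7 genes. The share of all genes beyond counting error was not counted. A response above 0 in shGFP and below 0 in shCtbp2, of any size, was seen in 14.6% of all genes. The log2 response of shCtbp2 minus that of shGFP was -3.03 for Fry, -2.60 for Amot, -2.60 for Rragd and -2.56 for Prdm1. The difference was not tested, since each response comes from 2 libraries, and the genes were chosen by it. For Amot the shCtbp2 response was above 0 after the GC and length correction, while Fry, Rragd and Prdm1 kept opposite directions under both other pseudocounts, both other scalings and the correction. No gene of the group had opposite directions beyond counting error in shRxr and shGFP, and the share of all genes that did was not counted.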

How the results depend on the processing

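For all 7 genes the shCtbp2 response stayed lower than that of shGFP by more than 1 with pseudocounts of 1 and 50, both other scalings and the GC and length correction, between -3.39 (pseudocount of 1) and -1.85 (correction). The genes were chosen by this difference, so nothing is read from that count. Of all genes 14.6% were past -1 with a pseudocount of 1 and 7.27% with 50. The share was 8.12% with equal upper quartiles, 9.76% with median-of-ratios scaling and 3.62% after the correction. Filters on the mean do not change a gene's value, but Fry and Thsd4 lie below a mean of 100. The median over the genes, -2.62, was -2.25 with a pseudocount of 50 and -2.03 after the correction. Over all genes the correction shifted median responses by -0.11 in shCtbp2, -0.14 in shRxr and -0.19 in shGFP. Equal upper quartiles shifted the median shCtbp2 difference by 0.15.

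The following counts over all genes moved by over 1.5 times. With a pseudocount of 50, genes at least 2-fold higher in RA numbered 1144 in shCtbp2 (1864 with a pseudocount of 10), 248 in shRxr (649) and 1049 in shGFP (1649), and genes at least 2-fold lower 80 in shRxr (180) and 548 in shGFP (872). Genes with a response lower by 1 or more than in shGFP then numbered 896 for shCtbp2 (1535) and 221 for shRxr (551). Against shGFP in RA, 1065 genes were then at least 2-fold lower in shCtbp2 (1831) and 143 in shRxr (323). Untreated, 68 were then higher (172) and 45 lower (288) in shCtbp2 than in shGFP, and 532 lower with a pseudocount of 1. After the correction 1177 genes were higher and 1013 lower in RA in shCtbp2 (2377 lower without it), 565 were lower in shCtbp2 than in shGFP in RA, and a response lower by 1 or more was seen for 439 genes in shCtbp2 and 338 genes in shRxr. With equal upper quartiles 1001 were lower in response in shCtbp2. With a mean of at least 100, genes higher in RA numbered 1214 in shCtbp2, 302 in shRxr and 933 in shGFP, and 108 were lower in shRxr. With that filter 281 were lower in response in shRxr, 148 were lower in shRxr than in shGFP in RA, and 81 were higher and 132 lower in shCtbp2 than in shGFP untreated. Without a filter 3061 genes had a response below 0 in shCtbp2 and above 0 in shGFP (1806 with it). The cause was not tested, except that the stricter mean leaves fewer genes and no filter leaves more.

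No paired analysis was possible because the comparisons are between lines, and pairing RA with untreated by line leaves no residual degrees of freedom for a difference between lines. Each response rests on 1 library per treatment, so none was left out. Depth limits Thsd4 most, with 5 to 10 reads in each untreated library.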
